A study of Mus musculus with 2 samples.

Results

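Small nucleolar RNAs (snoRNAs) guide the chemical modification of ribosomal RNA, and in mammals most of them are cut out of introns of other genes. A snoRNA host gene is such a gene, and 8 noncoding hosts of the mouse are described here: Snhg1, Snhg3, Snhg5, Snhg6, Snhg8, Snhg12, Gas5 and Zfas1. They were chosen by name, with earlier results of these data known. Their Ensembl IDs, with versions dropped, were looked up in the gene and transcript tables. Of the 8 genes, 6 had rows among the 43346 Ensembl genes of the tables. Snhg1 and Snhg8 matched no row by their gene or transcript IDs of GENCODE release M21. The tables use the older release M4, in which these loci may carry other IDs, so their expression was not analysed here.

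The samples were 2 libraries of 1 group, livers of B6NCrl mouse embryos at embryonic day 16.5, a stage at which the liver is also the main site of blood formation. Each library came from pooled male and female embryos that the labels call healthy. The replicate 2 pool held 41 embryos, the labels give no number for replicate 1, and both pools carry the same donor identifier. Total RNA above 200 nt was used at 10 ng per library, so the mature snoRNAs themselves, which are shorter than most messenger RNAs, lie largely outside what was sequenced. Expected counts, the authors' estimated reads per gene, summed to 44477766 in replicate 1 and 48820712 in replicate 2. No second condition exists, so levels are given per library and as a mean ± SD in TPM, a gene's abundance per length relative to all transcripts of its library, with no test. The spread is that of 2 pools. Of the defining markers, all 7 hepatocyte markers, led by Trf, Afp and Alb, and all 7 erythroid markers exceeded 10 TPM in each library, while the lung markers Nkx2-1 and Scgb1a1 and the brain marker Sox2 stood at 0. Markers of other tissues were also present, with the skeletal muscle marker Acta1 at 76 TPM in replicate 1 and 182 TPM in replicate 2, and the pancreatic Ins2 at 0.90 TPM in replicate 1 and 18.9 TPM in replicate 2.

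The spliced RNA of a host gene is a by-product or a second product of snoRNA synthesis. Box C/D snoRNAs guide the methylation of ribose and are held by fibrillarin and its partners, and box H/ACA snoRNAs guide the change of uridine to pseudouridine and are held by dyskerin and its partners. Many host genes start with a run of pyrimidines like that of ribosomal protein genes, and the spliced RNAs of several, Gas5 among them, are broken down by nonsense-mediated decay in growing mammalian cells.

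Within the 8 genes, GENCODE release M21 annotates 30 snoRNA genes by symbol on the same strand, 9 in Gas5, 8 in Snhg1, 4 in Snhg12, 3 in Zfas1, 2 in Snhg3, 2 in Snhg5, 1 in Snhg6 and 1 in Snhg8. By gene ID there are 32, as Snord80 and Snora16a each have a second ID, and each symbol was counted once. The letters TGATGA, the usual box C, in the first 20 bases and CTGA, the box D, in the last 20 were found together in 19 of the 30, and ACA placed 3 bases before the end, as in box H/ACA snoRNAs, in 5 others. The remaining 6 held neither form. Of all 1507 annotated mouse snoRNAs with a sequence, 20.5% held the first form and 18% the second. Only the snoRNA strand was searched, TGATGA and CTGA cannot overlap in these windows of separate ends, and a missing match says only that these letters are not there.

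The following box C/D snoRNAs show the cargo of Gas5, Snhg5, Snhg6 and Zfas1, with box C and box D in capitals, from the GENCODE M21 transcripts of GRCm38.
Snord47 (Gas5, chr1:161038082-161038158, plus strand): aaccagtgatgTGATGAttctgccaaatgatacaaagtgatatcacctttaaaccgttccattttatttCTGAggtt
Snord80 (Gas5, chr1:161037601-161037681, plus strand): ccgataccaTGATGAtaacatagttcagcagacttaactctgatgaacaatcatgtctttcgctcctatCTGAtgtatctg
Snord50a (Snhg5, chr9:88521529-88521600, minus strand): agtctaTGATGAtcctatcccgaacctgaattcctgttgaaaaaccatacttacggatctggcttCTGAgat
Snord50b (Snhg5, chr9:88521797-88521868, minus strand): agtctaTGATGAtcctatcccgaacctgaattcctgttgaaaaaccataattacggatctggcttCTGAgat
Snord87 (Snhg6, chr1:9942463-9942549, minus strand): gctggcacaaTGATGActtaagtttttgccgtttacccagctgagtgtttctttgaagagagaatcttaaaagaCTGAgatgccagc
Gm25878 (Zfas1, chr2:167063473-167063565, plus strand): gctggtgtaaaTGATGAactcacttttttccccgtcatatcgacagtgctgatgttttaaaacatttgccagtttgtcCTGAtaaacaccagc
Gm23201 (Zfas1, chr2:167064998-167065086, plus strand): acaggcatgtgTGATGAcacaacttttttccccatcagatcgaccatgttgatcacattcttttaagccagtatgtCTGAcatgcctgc
Snord12 (Zfas1, chr2:167065276-167065365, plus strand): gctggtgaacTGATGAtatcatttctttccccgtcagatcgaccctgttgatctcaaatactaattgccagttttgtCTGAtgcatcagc
Snord50a and Snord50b differ at 1 of 72 bases, written C50A with the base of Snord50a first and counted from its first base. The 3 snoRNAs of Zfas1 share no run longer than 7 bases, tttcccc.

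The box H/ACA cargo is shown by Snhg3 and Snhg12, with ACA in capitals.
Snora73a (Snhg3, chr4:132352775-132352979, minus strand): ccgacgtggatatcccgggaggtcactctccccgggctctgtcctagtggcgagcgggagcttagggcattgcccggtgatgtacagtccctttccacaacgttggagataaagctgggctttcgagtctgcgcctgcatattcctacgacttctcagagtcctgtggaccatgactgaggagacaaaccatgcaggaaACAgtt
Snora61 (Snhg12, chr4:132310240-132310369, plus strand): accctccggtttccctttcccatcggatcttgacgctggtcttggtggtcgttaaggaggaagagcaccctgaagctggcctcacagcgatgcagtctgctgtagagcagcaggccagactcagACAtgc
Snora73b, in the other intron of Snhg3, is 96.6% identical to Snora73a over 205 bases, with 7 differences.

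Of the 6 genes with values, Gas5 was by far the most abundant. Gas5, named for its rise in growth-arrested cells, spans chromosome 1, 161034422 to 161038539, on the plus strand, and stood at 254 TPM in replicate 1 and 207 TPM in replicate 2, a mean of 231 ± 33.2 TPM (SD, n = 2). Its reads were 6337 and 5763 expected counts, whole numbers (within 0.01) in both libraries, as for a gene whose reads were not divided with another. Gas5 ranked 7th among the 6853 long noncoding genes and 403rd among all Ensembl genes by mean TPM. It exceeded the next host gene, Snhg3, 5.87-fold in replicate 1 and 6.22-fold in replicate 2, and held 63.7% ± 0.581 of the TPM of the 6 hosts (SD, n = 2).

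Snhg3, the host of the Snora73 pair, lies on chromosome 4, 132348014 to 132353686, on the minus strand, and stood at 43.3 TPM in replicate 1 and 33.3 TPM in replicate 2, a mean of 38.3 ± 7.06. Snhg6, which carries Snord87, lies on chromosome 1, 9941959 to 9944118, on the minus strand, and stood at 36.9 TPM in replicate 1 and 28.6 TPM in replicate 2, a mean of 32.8 ± 5.88. The values of these genes overlapped between libraries, so their order is not resolved by the means alone, although Snhg3 was above Snhg6 in each library.
Zfas1, a host read from the strand opposite to Znfx1, lies on chromosome 2, 167062934 to 167065862, on the plus strand, and stood at 29.3 TPM in replicate 1 and 27.1 TPM in replicate 2, a mean of 28.2 ± 1.61. Snhg5, the host of the Snord50 pair, lies on chromosome 9, 88521050 to 88522929, on the minus strand, and stood at 26.7 TPM in replicate 1 and 24.6 TPM in replicate 2, a mean of 25.6 ± 1.47. Snhg6 and Zfas1 overlapped in the same way, and Zfas1 stayed above Snhg5 without overlap, by a margin near the difference between the libraries.
Snhg12 was the lowest. It lies on chromosome 4, 132308623 to 132311024, on the plus strand, and stood at 6.19 TPM in replicate 1 and 6.69 TPM in replicate 2, a mean of 6.44 ± 0.354 (SD, n = 2), on 147 and 170 expected counts. The order of the 6 genes was the same in both libraries.

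**Figure D1:**
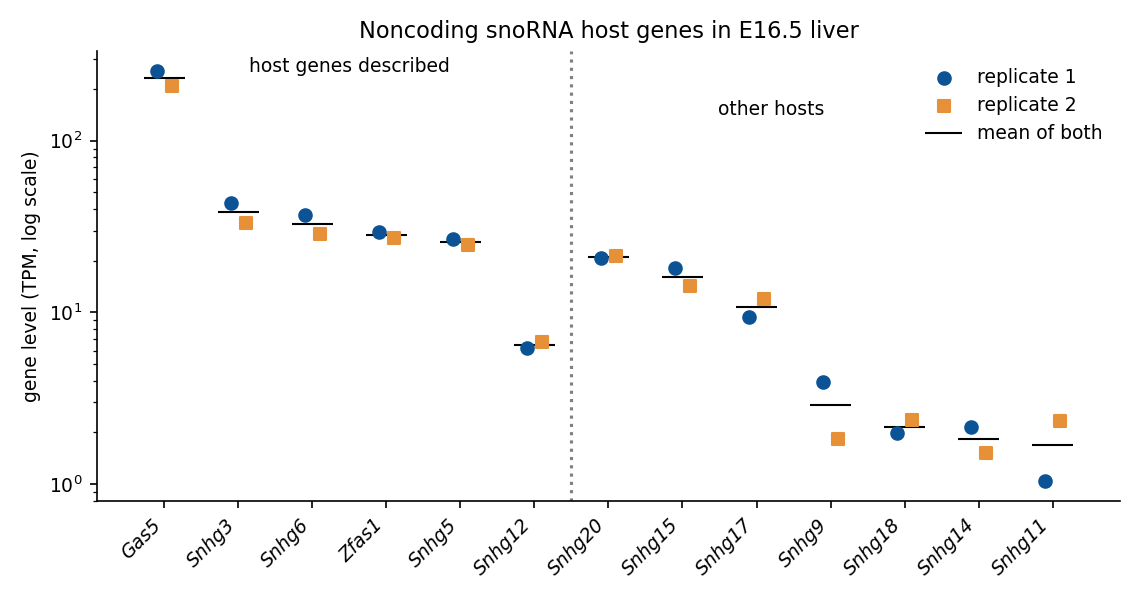
Level of each noncoding snoRNA host gene in TPM on a log axis, with a circle for replicate 1, a square for replicate 2 and a line for their mean; hosts to the right of the dotted line are from a list of other noncoding hosts. Gas5 stood at 231 TPM, Snhg3, Snhg6, Zfas1 and Snhg5 lay between 25.6 and 38.3 TPM, and Snhg12 stood at 6.44 TPM.

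In both libraries all 6 genes reached 1 TPM, against 5.44% of long noncoding genes and 27.9% of Ensembl genes. A level of 10 TPM was reached by 5 of 6, against 0.89% of long noncoding genes and 13.6% of Ensembl genes. A level of 100 TPM was reached by 1, Gas5, against 0.161% of long noncoding genes and 2.12% of Ensembl genes. The median host stood at 30.5 TPM, that of the 373 long noncoding genes past the first level at 2.45 TPM. Together the 6 hosts summed to 396 TPM in replicate 1 and 327 TPM in replicate 2, a mean of 362 ± 48.9 TPM (SD, n = 2). That was 3.85% ± 0.535 of the TPM of all long noncoding genes. As a share of the expected counts of those genes, which are not divided by length, it was 1.57% ± 0.214. Long noncoding genes were taken by annotated gene type. Gm42418, at 1994 ± 62.9 TPM, led them, and Gm26917 stood at 1087 ± 79.8 TPM. The set also took in Cct6a, at 144 ± 12.1 TPM, Tmem134, at 66.3 ± 0.120, and Ifi30, at 44.8 ± 1.61. These are symbols of protein-coding genes. The share, the percentages of long noncoding genes and the rank of Gas5 depend on such entries. The share without them was not computed. For scale, the nuclear RNA Malat1 stood at 1361 ± 22.3 TPM, the imprinted H19 at 547 ± 59.8 TPM and the imprinted Meg3 at 276 ± 10.1 TPM, all above Gas5, and Kcnq1ot1 was the lowest of 8 such RNAs at 0.95 ± 0.0141 TPM. The TPM of Malat1 rests on a length of 519 nt, that of H19 on 1666 nt. By expected counts H19, at 33297 in replicate 1 and 41645 in replicate 2, stood above Malat1, at 23779 and 26117.

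Other noncoding hosts were mostly lower. Of a list of 12 such hosts, 7 matched a row of the tables, and the 6 described genes stood above these 7 except that Snhg12 lay below 3 of them. Snhg20 stood at 20.7 TPM in replicate 1 and 21.3 TPM in replicate 2, Snhg15 at 18.2 and 14.2 TPM, and Snhg17 at 9.46 and 12.0 TPM. The lowest by mean, Snhg11, stood at 1.05 TPM in replicate 1 and 2.34 TPM in replicate 2, where Snhg14, at 1.52 TPM, and Snhg9, at 1.83 TPM, were lower. The median of the 7 was 3.16 ± 1.14 TPM (SD, n = 2 libraries).

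Coding hosts were higher by median and spanned a wide range. The median of the 16 listed coding hosts was 236 ± 13.3 TPM (SD, n = 2), a level close to that of Gas5, and 13 of them reached 100 TPM in each library. Hspa8, a constitutive chaperone, stood at 795 ± 2.14 TPM, the ribosomal protein gene Rpl13a at 451 ± 48.2 TPM, and Taf1d, a subunit of the RNA polymerase I selectivity factor, was the lowest at 9.01 ± 0.636 TPM. Taf1d and Rpl5, at 19.8 ± 2.09 TPM, lay below all of the described hosts other than Snhg12.

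The proteins that bind snoRNAs were expressed throughout. The 4 box C/D proteins had a median of 96.1 ± 7.45 TPM, with Snu13 at 114 ± 9.43, Nop56, itself a snoRNA host, at 111 ± 8.39, Nop58 at 81.5 ± 6.50 and the methyltransferase gene Fbl at 35.5 ± 0.0141 TPM. The 4 box H/ACA proteins had a median of 59.7 ± 1.45 TPM, with Nop10 at 95.8 ± 9.33, Nhp2 at 65.2 ± 6.53, the pseudouridine synthase gene Dkc1 at 54.3 ± 3.62 and Gar1 at 19.7 ± 1.89 TPM. The median of 10 genes for particle assembly and intron debranching was 10.4 ± 0.781 TPM. The ATPases Ruvbl1, at 52.8 ± 2.94 TPM, and Ruvbl2, at 49.9 ± 0.658 TPM, and Pih1d1, at 37.3 ± 0.601 TPM, led them, the debranching enzyme gene Dbr1 stood at 13.0 ± 1.29 TPM, and the assembly factor gene Naf1 was lowest at 0.525 ± 0.0495 TPM. The 10 nonsense-mediated decay genes were lower, and their median was 6.78 ± 0.0849 TPM. Smg5 led them at 25.9 ± 1.78 TPM, followed by Upf3a at 12.2 ± 1.07 and Smg9 at 11.9 ± 0.806 TPM, the helicase gene Upf1 stood at 4.75 ± 0.0283 TPM, and Upf2 was lowest at 3.54 ± 0.0919 TPM.

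**Figure D2:**
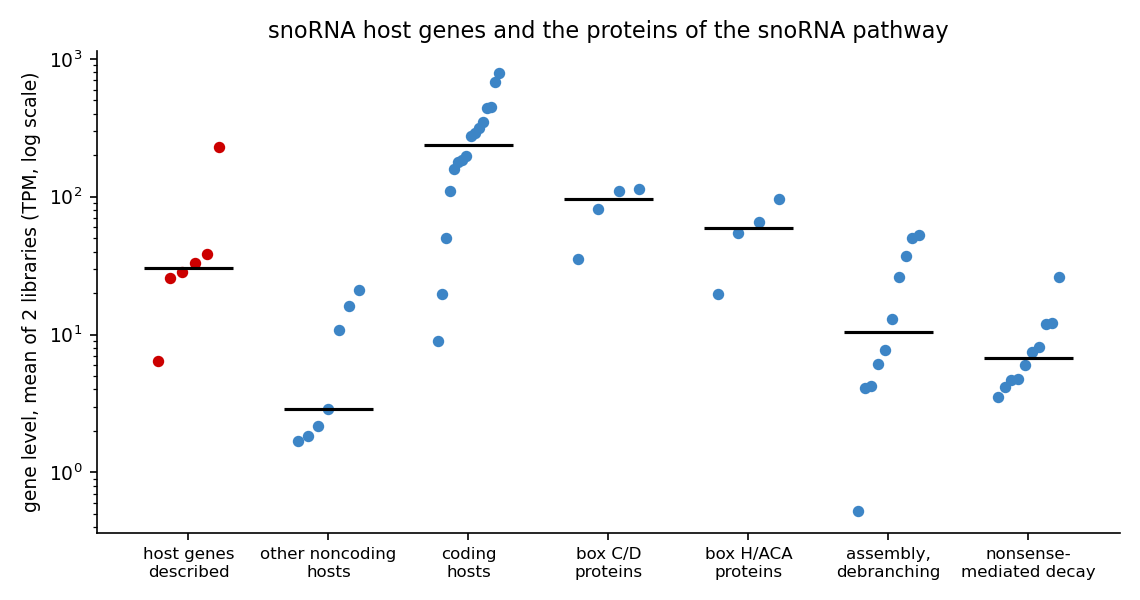
Mean TPM of the 2 libraries on a log axis for the host genes described (red) and for the members of each list (blue), with a line at the median of each column. The median is 30.5 TPM for the host genes described and 236 TPM for the coding hosts, and Gas5, the highest red point, lies near the median of the coding hosts.

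The deposited transcript tables divide each gene among its annotated models. In 2 of 6 hosts, Snhg3 and Zfas1, the leading model held 50% or more of the gene's TPM. This compares with 79.1% of the 4387 genes that have several models and reach 10 TPM in each library. Among those genes, 30 of 39 long noncoding ones had such a leading model. Snhg12 lies below 10 TPM, and the 4387 genes were not matched to the hosts for number of models. By TPM the same model led in both libraries in all 6. Expressed as the number of equally abundant models that would give the same evenness, Gas5 had 5.71, Snhg5 had 5.20, Snhg6 had 3.79, Snhg12 had 3.37, Zfas1 had 2.49 and Snhg3 had 1.43, against a median of 1.69 over those 4387 genes.

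Gas5 has 25 models in the tables, of which 3 had no counts in either library. The leading model, Gas5-224, of 502 nt and 12 exons, held 35.1% of Gas5 in replicate 1 and 36.7% in replicate 2. Gas5-210, of 557 nt, held 18.3% in replicate 1 and 14.1% in replicate 2. Both leave all 9 snoRNAs in introns. The third, Gas5-213, of 759 nt, held 8.0% in replicate 1 and 8.74% in replicate 2 and also has no snoRNA in an exon, although it is annotated as retained intron. Models that the annotation calls retained intron, 20 of the 25, held 45.9% of Gas5 in replicate 1 and 48.0% in replicate 2, a mean of 46.9% ± 1.52 (SD, n = 2). The 16 models with at least 1 whole snoRNA inside an exon held 32.7% in replicate 1 and 34.3% in replicate 2 by TPM, and 49.4% and 52.0% by expected counts. The leading model separated from the second beyond its deposited intervals, at 81.5 to 94.2 TPM against 39.9 to 51.9 TPM in replicate 1, and the level of these intervals is not stated.

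**Figure D3:**
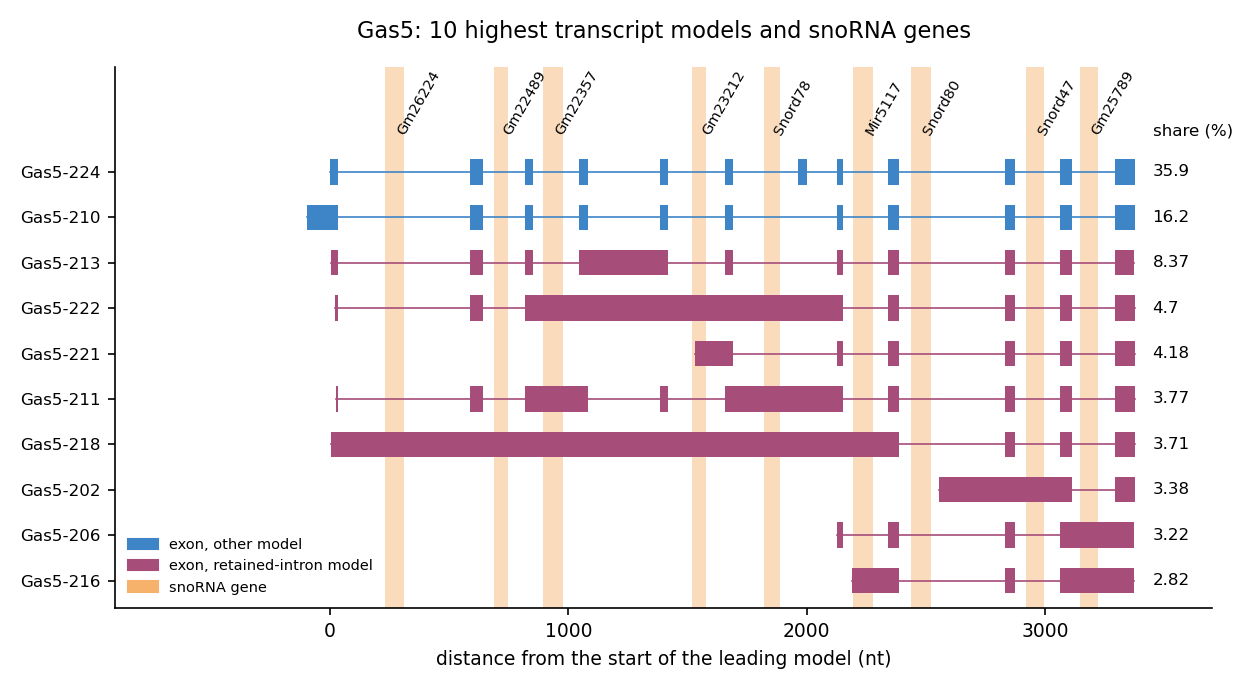
The 10 Gas5 models with the highest mean share of the gene's TPM, drawn to scale by distance in nt from the start of the leading model, with exons as boxes, introns as lines, snoRNA genes as shaded columns and the mean share at the right. In the leading model, at 35.9%, every snoRNA lies in an intron, while Gas5-222, at 4.7%, and Gas5-218, at 3.71%, carry several snoRNAs within long exons.

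Snhg5 was divided most evenly after Gas5, and its 3 highest models by mean share were all of the retained-intron class. Snhg5-204, of 883 nt, which holds Snord50a within an exon, had 24.1% of the gene in replicate 1 and 26.3% in replicate 2. Snhg5-206 had 21.5% and 20.8%, and Snhg5-205, which also holds a snoRNA in an exon, had 17.8% and 21.2%. The class held 63.4% of Snhg5 in replicate 1 and 68.3% in replicate 2, a mean of 65.8% ± 3.44 (SD, n = 2). Snhg5-203, of 440 nt and not of that class, lay above Snhg5-205 in replicate 1 and differed most between the libraries, with 19.2% of the gene in replicate 1 and 6.14% in replicate 2 on 73.3 and 23.4 expected counts, and its deposited TPM intervals, 2.00 to 7.18 in replicate 1 and 1.08e-06 to 3.09 in replicate 2, overlapped.

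Zfas1 was led by ENSMUST00000125674, which is absent from release M21, at 61.4% of the gene in replicate 1 and 58.7% in replicate 2. It is 737 nt long and stands beside a model of 738 nt, ENSMUST00000189909, that held 0.443% in replicate 1 and 0.332% in replicate 2. By the deposited posterior mean TPM the 2 models held 25.9% and 35.5% in replicate 1 and 30.3% and 28.2% in replicate 2, so the leading model by that measure differed between the libraries and the division between the 2 models is not resolved. The TPM of ENSMUST00000125674 in replicate 1, 18, also lay outside its deposited interval, 0.000229 to 15.3. Their sum was stable, at 61.8% in replicate 1 and 59.0% in replicate 2 by TPM, and 61.4% and 58.6% by posterior mean TPM. The 4 retained-intron models held 38.2% and 41.0%, a mean of 39.6% ± 1.98 (SD, n = 2). Of these, Zfas1-203 held 10.9% in replicate 1 and 14.7% in replicate 2, and Zfas1-204 held 10.6% and 10.2%.

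The 3 remaining hosts have no model annotated as retained intron. Snhg3 was the most uniform, with Snhg3-204, of 437 nt and 3 exons, at 83.1% of the gene in replicate 1 and 82.1% in replicate 2, Snhg3-203 at 11.3% and 11.1%, and Snhg3-202 at 4.94% and 5.77%. Snhg6 was spread over 4 models, with Snhg6-203 at 32.2% in replicate 1 and 33.9% in replicate 2, Snhg6-205 at 27.5% and 28.0%, Snhg6-204 at 21.9% and 20.7%, and Snhg6-202 at 18.4% and 17.4%. By expected counts, which grow with length, Snhg6-205 led with 42.1% in replicate 1 and 42.7% in replicate 2, and Snhg6-203 held 25.7% and 27.0%. In Snhg12 the leading model, Snhg12-206, held 58.2% in replicate 1 and 36.8% in replicate 2 on 77.0 and 56.8 expected counts, followed by Snhg12-205 at 18.2% and 23.9% and Snhg12-207 at 13.2% and 18.5%. Although not annotated as retained intron, Snhg12-207 and Snhg12-203 each hold a whole snoRNA in an exon. Together they held 17.9% of Snhg12 in replicate 1 and 21.7% in replicate 2. Models whose structure was known held only 76.1% and 58.4% of the gene, so these 2 values are lower limits. The Snhg12 shares rest on few counts.

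Among the 5 hosts that reached 10 TPM in each library, retained-intron models held 20% or more of the gene in 3, Gas5, Snhg5 and Zfas1, against 11.9% of the 4387 genes with several models at that level, where the median share was 0.95%. How well short reads tell these models apart was not tested, and the classes depend on which models were annotated.

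**Figure D4:**
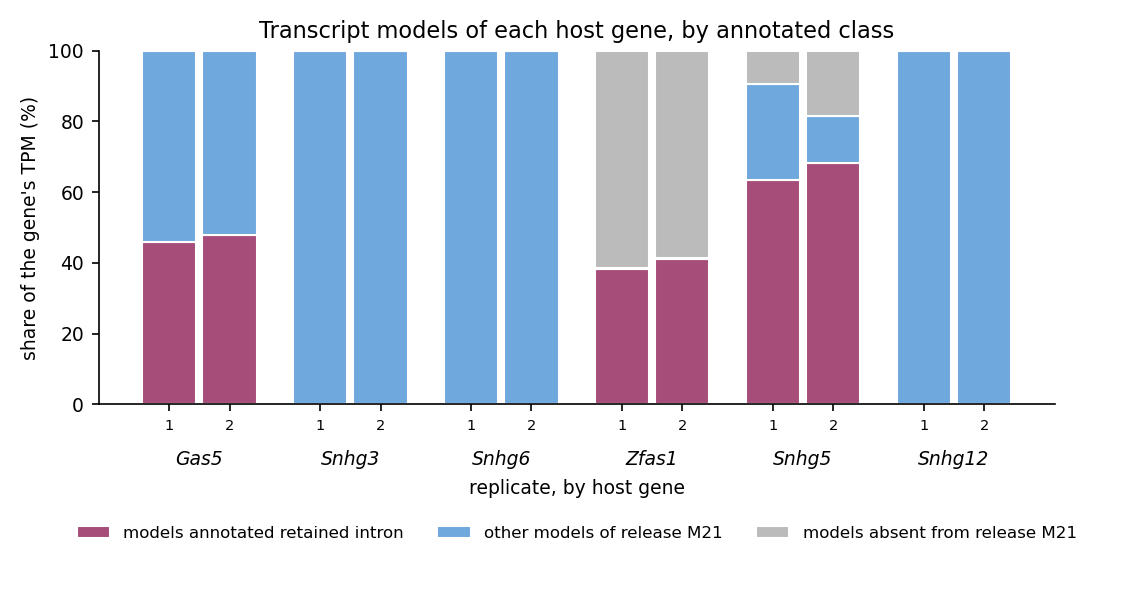
Share of each host gene's TPM (percent) on models annotated as retained intron, on other models of release M21 and on models absent from that release, with a bar for replicate 1 left of a bar for replicate 2. Retained-intron models held 65.8% of Snhg5, 46.9% of Gas5 and 39.6% of Zfas1, and Snhg3, Snhg6 and Snhg12 have none.

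Most snoRNAs ended at a similar distance from the exon that follows them. Taking the leading model of each host (for Zfas1, its 738 nt neighbour), 20 of the 21 snoRNAs of the 6 hosts lay within an intron and Snord50a of Snhg5 within an exon. The 13 box C/D snoRNAs in introns ended a median of 71 nt before the next exon. The range was 65 to 313 nt, and the 2 farthest were Gm26224, at 278 nt, and Snord80, at 313 nt, both in Gas5. In Zfas1 the distances were 70, 72 and 68 nt, and Snord87 of Snhg6 ended 71 nt before its exon. The H/ACA snoRNAs of Snhg3 ended 76 and 78 nt before theirs, and in Snhg12 Snora61 ended 81 nt and Snora16a 237 nt before the next exon.

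The snoRNA genes carried almost no reads of their own. In these tables the effective length of a model was its length less 99 nt, so 23 of the 30 snoRNAs, at 99 nt or shorter, could hold no counts. Of the 7 longer ones, 6 had a count above 0 in at least 1 library. Snora73b had 23.2 expected counts in replicate 1 and 13.2 in replicate 2, Snora24, of Snhg8, had 4 and 2, Snord22, of Snhg1, had 3.88 and 0, Snora16a had 2 and 0, and Snora61 had 0 and 0.53. The near-identical Snora73a had 2.85 and 0, so the division between these copies is uncertain.

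Several hosts share their locus with a coding gene. Snhg3 overlaps Rcc1, a regulator of nuclear transport, by 5592 nt on the same strand, with starts 81 nt apart, and Rcc1 stood at 37.5 ± 2.06 TPM. The counts of Snhg3 were not whole in either library, as where reads are divided between genes. Those of Rcc1 were 3317.53 in replicate 1 and the whole number 3374 in replicate 2. Those of Gm17300, which overlaps Snhg3 on the other strand, were 206.04 and 227.98, not whole in either library. The hosted Snora73b, at 23.15 and 13.17, was not whole either. Which genes shared these reads was not tested. Counts were also not whole for Snhg5 in both libraries. In replicate 2 they were not whole for Snhg12, at 170.47, and for its hosted Snora61, at 0.53. Gm17300, on the other strand within Snhg3, stood at 3.47 ± 0.0566 TPM, and Gm27494, on the same strand within Zfas1, stood at 0. Zfas1 and Znfx1 start 81 nt apart on opposite strands and overlap by 82 nt, and Zfas1 exceeded Znfx1 3.29-fold in replicate 1 and 2.63-fold in replicate 2. Gas5 overlaps the transcription factor gene Zbtb37 head to head by 428 nt at its far upstream start, and Zbtb37 stood at 1.62 TPM in replicate 1 and 1.64 TPM in replicate 2, under 1% of Gas5. Snhg6 overlaps the 3′ end of Mcmdc2, at 2.33 ± 0.170 TPM, by 127 nt on the other strand. Slc3a2, the heavy chain of amino acid transporters, starts 106 nt from Snhg1 on the other strand and stood at 72.7 ± 0.601 TPM. Because no strand-specific step is named for these libraries, reads of genes that overlap on opposite strands may not be told apart.

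Start sites of the hosts are shown because a pyrimidine run at the start is a known feature of ribosomal protein genes and of several hosts. RefSeq (GRCm38.p6) gave 8 windows for 7 of the 8 hosts, and Snhg6 had no entry. Of these windows, 15 bases before the start and 25 from it on are printed, with the longest pyrimidine run that reaches within 5 bases of the start in capitals.
Gas5 (chr1:161035151-161035190, plus strand): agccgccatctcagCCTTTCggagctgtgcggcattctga
Snhg1 (chr19:8723472-8723511, plus strand): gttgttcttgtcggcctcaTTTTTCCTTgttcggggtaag
Snhg12 (chr4:132308663-132308702, plus strand): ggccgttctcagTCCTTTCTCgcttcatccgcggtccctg
Snhg8 (chr3:123508312-123508351, minus strand): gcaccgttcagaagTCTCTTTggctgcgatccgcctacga
Snhg3 (chr4:132353662-132353701, minus strand): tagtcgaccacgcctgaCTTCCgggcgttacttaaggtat
Snhg5 (chr9:88522873-88522912, minus strand): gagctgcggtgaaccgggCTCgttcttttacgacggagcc
Zfas1 (chr2:167062919-167062958, plus strand): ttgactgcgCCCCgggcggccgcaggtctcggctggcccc
A run of 6 or more pyrimidines that reaches within 5 bases of the start was present in 4 of the 8 windows, those of Gas5, Snhg1, Snhg12 and Snhg8, against 21% of the 32851 windows of all genes. The Snhg5 window holds a longer run than its capitals, but past those 5 bases. The leading Snhg5 model, Snhg5-204, begins inside that run, at chromosome 9, 88522888, and the RefSeq start is at 88522897. The letters TATAAA, or in their place TATATA, or in their place TATTTA, which can overlap each other, stood on the gene's strand between 50 and 11 bases before the start in 5 of the 8 windows, those of Gas5, Snhg1, Snhg5, Snhg8 and Snhg12, against 4.28% of all windows. Gas5 has a second window with a start at 161034601, which held neither. The printed Gas5 window is the one at the leading model, as Gas5-224 begins at chromosome 1, 161035163, 3 nt from the RefSeq start at 161035166.

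Most hosts were somewhat higher in replicate 1, by less than 1.5-fold. Ratios are log2 values of replicate 1 over replicate 2 after adding 1 to each TPM, less the median ratio of the 12017 genes whose expected counts averaged at least 100. On this scale 0 of 6 hosts lay past 1.5-fold, against 1.13% of those genes, of which 0.158% were higher and 0.974% lower in replicate 1. With 1 library on each side the difference has no replicate check and no p-value. Snhg3 was at 0.39, Snhg6 at 0.38, Gas5 at 0.31, Snhg5 at 0.13, Zfas1 at 0.13 and Snhg12 at -0.08. The ratio was above 0 in 5 of 6, against 50% of all genes, and its median was 0.22, against 0 for all genes, with quartiles at -0.12 and 0.11, and 0.01 for the 246 long noncoding genes with enough counts. Counting error alone, as exact 95% intervals on the count ratio, spanned 0.26 to 0.37 for Gas5, 0.23 to 0.57 for Snhg3, 0.23 to 0.54 for Snhg6 and -0.42 to 0.24 for Snhg12, and reads without molecular identifiers can vary more than this. The coding hosts showed the same sign, with 16 of 16 above 0 and a median of 0.15, as did 4 of 4 box C/D proteins, with a median of 0.18. The decay genes were above 0 in 4 of 10, with a median of -0.02. Of the 4 box H/ACA proteins 2 were above 0, with a median of 0.05, and of the 9 assembly genes with enough counts all 9, with a median of 0.13. Of the 6 other noncoding hosts with enough counts 2 were above 0, with a median of -0.09, and Snhg11 lay past 1.5-fold at -0.69.

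**Figure D5:**
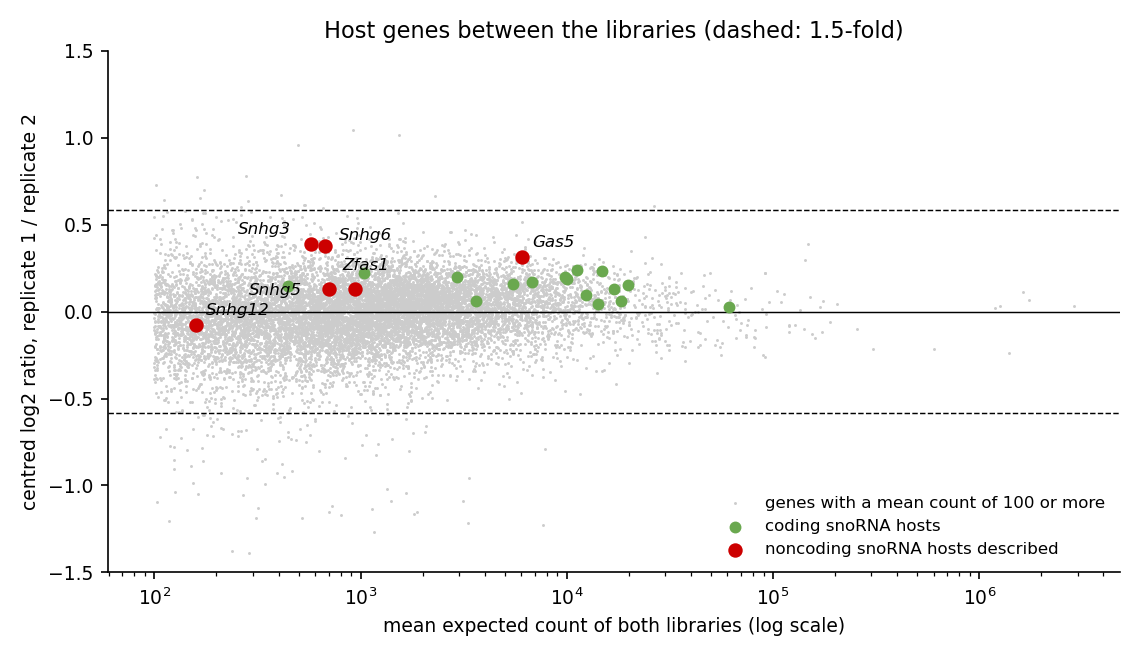
Centred log2 ratio of replicate 1 over replicate 2 against the mean expected count on a log axis, for genes with a mean count of 100 or more (grey), coding snoRNA hosts (green) and the noncoding hosts described (red); dashed lines mark 1.5-fold and 25 grey genes lie outside the range shown. The red points lie between -0.08 and 0.39, inside the dashed lines, and 5 of 6 lie above 0.

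Markers of skeletal muscle, pancreas and intestine were higher in replicate 2. Summed over their lists, the 3 skeletal muscle markers stood at 98.4 TPM in replicate 1 and 233 TPM in replicate 2, the 3 pancreas markers at 3.12 and 31.5 TPM, and the 3 intestine markers at 7.87 and 15.9 TPM. The 3 heart markers stood at 3.86 and 4.29 TPM, the lung markers at 0.51 and 0.31 TPM and the brain markers at 0.31 and 0.60 TPM. Of the 7 hepatocyte markers 6 were lower in replicate 1, with a median centred ratio of -0.20, and 4 of 7 erythroid markers were higher in replicate 1, with a median of 0.03. Their part in the difference of the hosts was not tested. In whole tissue, fewer cells of a type and less RNA per cell cannot be told apart.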

How the data were processed

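Total RNA above 200 nt of 2 pooled E16.5 liver samples was sequenced. For each library the authors' files give 69691 genes and other features and 129984 transcripts, quantified on mm10 with GENCODE M4, as the deposited text files state. The columns are those of RSEM. The sources used here name neither its version nor an aligner. The authors' deposited expected counts are estimated counts. The deposited TPM and FPKM values are scaled over all rows, 96 ERCC spike-ins included, and FPKM entered no result. The deposited tables add a posterior mean TPM per feature, and the deposited percent columns give transcript shares, which were recomputed here from TPM. The deposited TPM bounds were read as signal, and the deposited posterior SD, a score, was not used. Symbols, types, exons and snoRNA genes came from GENCODE M21 (GRCm38, the same build), with IDs matched without version (42462 of 43346 genes, 98%). A model whose M21 length differed from the table's gave no snoRNA position.

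Levels are means ± SD (n = 2). The ratio used a pseudocount of 1 TPM and a count minimum of 100. On data simulated from the 43346 genes it called 99 of 100 genes changed 2-fold, and 32 of 11804 unchanged ones. The changed genes were drawn only from those past the count minimum and a TPM floor. The same assumed spread was used for every gene, so the simulation does not give the error rate of these libraries. In the libraries themselves 136 of 12017 genes lay past 1.5-fold. Named genes are the 8 hosts, their 3 leading models, hosted snoRNAs with counts, overlapping or head-to-head genes (starts within 1 kb) and the 3 highest and the lowest of each list, with all 4 of the box lists. A gene that this rule names is not reported here. A host is not named for likeness of pattern, as 2 libraries of 1 group give no pattern. Dbr1, Upf1, Rpl5, Snhg9, Snhg14, Gm42418, Gm26917, Cct6a, Tmem134, Ifi30 and models beyond the leading 3 were chosen after their values were seen. The hosts and lists were chosen with earlier results of these data known. Tools were python 3.11.15, numpy 2.4.6, pandas 2.3.3, scipy 1.17.1 and matplotlib 3.10.9, with edgeR 4.0.16 and DESeq2 1.42.0 (R 4.3.3) on counts rounded to whole numbers for alternatives.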

Additional observations from a re-analysis of the deposited data

How the results depend on the processing

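Of 43 alternatives to the main results, 37 stayed within their limit and 6 did not. The limit was 1.5 times for a count and the spread of the replicates for a level or share. For the median ratio it was the average margin of the counting intervals. Expected counts scaled to the library total (CPM) in place of TPM gave a sum of 196 and a long noncoding share of 1.57%, since counts are not divided by length. The number of hosts led by a model at 50% or more was 1 with posterior mean TPM and 1 at a threshold of 75%. Scaled to the spike-ins, which took 3.96% of TPM in replicate 1 and 5.08% in replicate 2, 3 hosts lay past 1.5-fold and their median ratio was 0.55, while the median of all genes moved to 0.29, so the hosts lay 0.26 above it. Of 102 alternatives for single genes 87 stayed within the spread of the replicates or the counting interval and 15 moved. Under spike-in scaling the ratio of Snhg12 changed sign, to 0.21, against -0.08 before, a value not past 1.5-fold under either. By expected counts another model led Snhg6, and by posterior mean TPM another led Zfas1. Leaving out a replicate returns the value of the other library, so it is no check of stability. It gave sums of 327 to 396 TPM and 2 or 3 hosts with a leading model at 50% or more, the third being Snhg12 in replicate 1 alone, and it cannot be done for the ratios. For levels and shares a value left this way always lies within the spread of the replicates. Such alternatives are among the 37 and the 87 and could not have moved. Depth limits Snhg12 and the transcript shares of low models. No paired analysis was possible because the study has 1 group.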
